A study of Mus musculus with 28 samples.

Results

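The 10 genes described here are the antioxidant and Nrf2 response genes Sod1, Sod2, Cat, Gpx1, Gpx4, Prdx6, Hmox1, Nqo1, Nfe2l2 and Txnip, chosen by symbol from the 22256 gene symbols of the authors' table. All 10 were among the 15781 genes kept for testing. They were measured in hippocampi of aged mice of the NSG strain (mean age 14 months), an immunodeficient background that lacks mature lymphocytes. The animals had received 6 intravenous injections of phosphate-buffered saline (PBS, the vehicle), human cord plasma, plasma of young human donors or plasma of old human donors. Each of the 4 groups held 7 arrays, 28 in all, and the labels give all groups the same strain and mean age. The protocol text names the 6 injections for mice given plasma and stands unchanged on the PBS arrays. Values are log2 intensities, on which a difference of 1 is a doubling of intensity. Whether the arrays come from different mice is not given in the labels, and a p-value here speaks of the spread among these arrays, which may be technical.

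Nfe2l2 encodes Nrf2, a transcription factor that Keap1 and Cul3 mark for degradation until oxidants or electrophiles release it. It then binds antioxidant response elements together with small Maf proteins and activates genes such as Hmox1 and Nqo1. Superoxide dismutases turn superoxide into hydrogen peroxide, which catalase, glutathione peroxidases and peroxiredoxins remove, while Txnip binds thioredoxin and holds back its reducing activity. Much of Nrf2 control acts on the protein, which these arrays do not measure. Because whole hippocampi were measured, fewer cells of a type and less RNA per cell cannot be told apart.

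Array medians ran from 4.96 to 5.09. Markers of granule and pyramidal neurons of the hippocampus were measured for 9 of 9 genes and averaged 8.17 to 8.84 per array. Markers of neighbouring cortex and striatum were above the filter for 8 of 8 genes too, at 6.51 to 6.86 on the PBS arrays and 6.78 to 7.29 on the young plasma arrays. Choroid plexus and ependyma markers (8 of 8 genes) formed separate clusters of arrays between 5.79 and 8.47, with group means of 7.16 with PBS, 6.83 with cord, 6.97 with young and 7.0 with old plasma. Young plasma replicate 7 stood apart from the other 27 arrays: 27.7% of all genes lay outside the range of the others on it, against 2.41% to 14.8% on each other array. For the genes named here, differences whose call turned on this array are given with and without it. Thalamus markers (6 of 6 genes) averaged 7.82 on PBS replicate 6 and 6.56 to 6.85 on the other arrays.

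No difference of these 10 genes between human plasma and PBS stood out from the spread between arrays once all genes were taken into account. No member passed an adjusted p of 0.05 (Benjamini-Hochberg over all genes, limma) in any comparison. At an unadjusted p under 0.05, 2 members were higher with cord plasma than with PBS, where 8.74% of all genes differed, 0 members differed with young plasma (11.2% of all genes) and 0 with old plasma (10.8% of all genes). An exact permutation test gave 1, 0 and 1 members in the same comparisons. It was run on the members alone, so no share of all genes stands beside these counts. The 2 with cord plasma were Prdx6 and Cat, and the median difference of the 10 members was 0.01, beside 0.0061 over all genes. It was 0.02 with young plasma, beside -0.0018 over all genes, and 0.02 with old plasma, beside 0.0050. At an adjusted p under 0.05 limma called 0% of all genes in each of these 3 comparisons. The moderated F-test over the 4 groups gave 0 members an unadjusted p under 0.05, where 9.83% of all genes had one and 0.00634% passed after adjustment. In no member did the arrays of a plasma group all lie on the same side of the PBS arrays, as 0.196% of all genes did with cord, 0.215% with young and 0.323% with old plasma. The 3 comparisons share the PBS arrays.

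**Figure D1:**
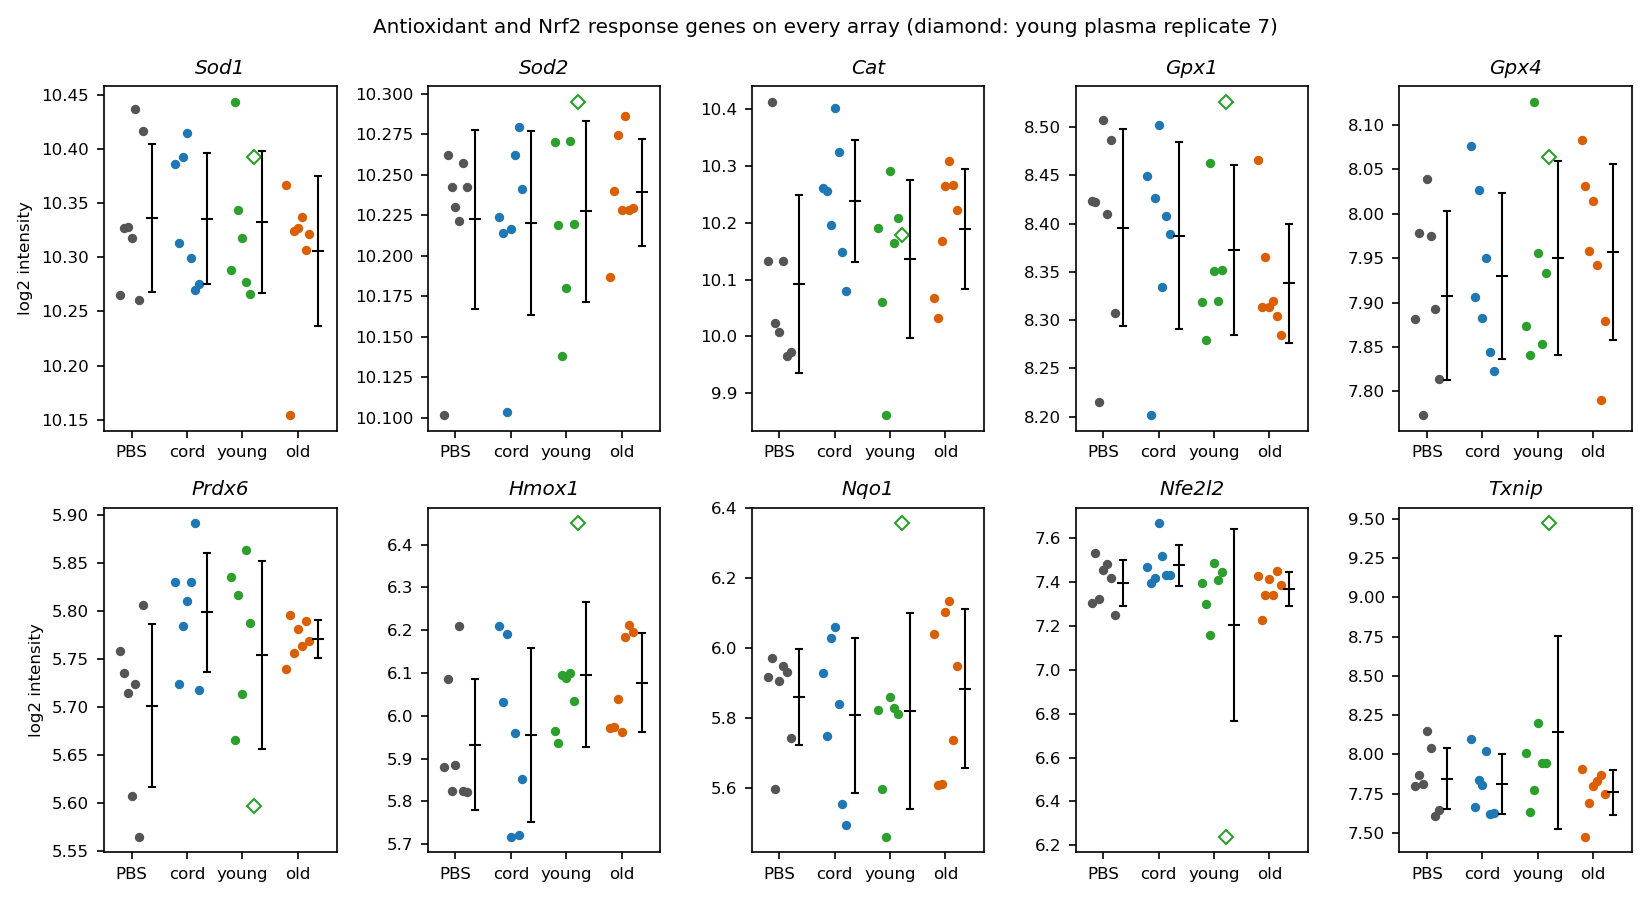
Log2 intensity of each member on every array, by group (x axis), with group mean and SD as black bars (n = 7). The open diamond is young plasma replicate 7, at 6.24 for Nfe2l2 and 9.47 for Txnip, while the points of the 4 groups otherwise overlap in each panel.

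The regulator and a superoxide dismutase gene carry a match to the antioxidant response element core in the 250 bases before their start, and Txnip carries a repeated element there. Of the members, 8 had an entry among RefSeq's promoters of GRCm38.p6, and Hmox1 and Prdx6 had none. The core was searched as TGACNNNGC on both strands and was found upstream of 10.2% of 32851 mouse promoters. Among the members it occurred upstream of Nfe2l2, as TGACTCCGC at -240 to -232 from the start, and upstream of Sod1, on the opposite strand at -56 to -48. The sequences of Nfe2l2 (chr2:75704664-75704913, minus strand) and Sod1 (chr16:90220512-90220761, plus strand) are shown with the core in capitals, because Nrf2 binds such elements. The window of Nqo1 held no match, and a match here does not mark a gene as a Nrf2 target. For Txnip (chr3:96557707-96557956, plus strand) the capitals mark a repeat of CACGAG at -85 to -69. Such a repeat with a short spacer is the form in which MondoA and ChREBP, the glucose-sensing factors, are known to bind.
Nfe2l2: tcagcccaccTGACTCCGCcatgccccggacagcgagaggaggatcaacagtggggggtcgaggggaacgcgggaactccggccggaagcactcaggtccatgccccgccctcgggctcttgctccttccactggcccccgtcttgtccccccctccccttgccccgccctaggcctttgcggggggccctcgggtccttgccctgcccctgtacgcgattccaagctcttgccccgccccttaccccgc
Sod1: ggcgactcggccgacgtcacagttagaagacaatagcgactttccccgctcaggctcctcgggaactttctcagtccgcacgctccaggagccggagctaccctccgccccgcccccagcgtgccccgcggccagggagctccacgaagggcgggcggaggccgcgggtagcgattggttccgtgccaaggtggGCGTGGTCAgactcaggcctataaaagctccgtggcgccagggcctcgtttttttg
Txnip: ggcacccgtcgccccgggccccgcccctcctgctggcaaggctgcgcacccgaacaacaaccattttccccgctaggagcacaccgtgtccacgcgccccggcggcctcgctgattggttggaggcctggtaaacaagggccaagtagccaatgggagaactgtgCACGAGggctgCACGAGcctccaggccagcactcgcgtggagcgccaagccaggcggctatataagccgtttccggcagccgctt
The letters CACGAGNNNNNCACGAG, chosen after the sequences had been seen, occurred on either strand in 1 of the 32851 windows, that of Txnip. The E-box CACGTG (6.02% of promoters) and the AP-1 letters TGANTCA (6.75%), of which a stretch can also match the antioxidant core, were in none of the members' windows. CCAAT, in 33.8% of promoters, was upstream of Cat, Txnip, Gpx4, Sod1 and Sod2, with 4 matches before Cat. A match describes these letters and is not a measured binding site.

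Nfe2l2, the regulator itself, had group medians between 7.39 and 7.43, highest with cord plasma, and 1 young plasma array far below the rest. It ran from 7.25 to 7.53 with PBS (median 7.42) and from 7.40 to 7.67 with cord plasma (median 7.43). It ran from 6.24 to 7.49 with young plasma (median 7.39) and from 7.23 to 7.45 with old plasma (median 7.39). The groups overlapped, and the lowest young plasma value, that of replicate 7, lay far below the next array of that group at 7.16. Young plasma differed from PBS by -0.19 (SE 0.12, unadjusted p 0.114, limma, and 0.311 by exact permutation), and by -0.03 (SE 0.06) without replicate 7. Cord plasma differed from PBS by 0.08 (SE 0.12) and old plasma by -0.03 (SE 0.12), and both SEs were 0.05 without replicate 7. Cord plasma was above young plasma by 0.27 (SE 0.12, unadjusted p 0.0284, adjusted p 0.673, limma), and by 0.11 (SE 0.06, unadjusted p 0.0564) without replicate 7. This was the 1 member under an unadjusted 0.05 in that comparison, where 7.22% of all genes were, and without replicate 7 it was 0 members beside 6.46% of all genes. Leaving out cord plasma replicate 4 also ended this call (largest unadjusted p of the 14 leave-outs 0.0611). By exact two-sided permutation of all 14 arrays of cord and young plasma the p was 0.0443. Cord plasma exceeded old plasma by 0.11 (SE 0.12, unadjusted p 0.373, limma), and by 0.11 (SE 0.05, unadjusted p 0.0561) once young plasma replicate 7 was left out of the fit, whose spread is shared by all groups. The exact two-sided permutation test of the 14 arrays compared gave p 0.0227. By limma 0 members were under an unadjusted 0.05 in that comparison, where 4.2% of all genes were.

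Genes that hold Nrf2 in check or pair with it were measured for 13 of the 14 listed. None passed an adjusted p of 0.05. At an unadjusted p under 0.05, 1 was lower with cord plasma, 2 were higher with young and 1 was higher with old plasma. With cord plasma this was Gsk3b, a kinase that marks Nrf2 for degradation, at -0.09 (SE 0.04). With young plasma these were Bach1, a repressor that competes with Nrf2 for its elements, at 0.15 (SE 0.06), and the small Maf gene Mafk at 0.22 (SE 0.10). Without replicate 7 Mafk was at 0.09 (SE 0.06, unadjusted p 0.115, limma) and Gsk3b at -0.09 (SE 0.04, unadjusted p 0.0359, limma), so the young plasma count became 1 higher and 1 lower. Dpp3, whose product binds Keap1, was at 0.10 (SE 0.04) with old plasma. Cul3, whose product marks Nrf2 for degradation with Keap1, was at -0.04 with cord, -0.04 with young and -0.07 with old plasma.

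Hmox1, the inducible heme oxygenase and a classical Nrf2 target, had its highest group means with young and old plasma. It ran from 5.82 to 6.21 with PBS (median 5.88) and from 5.72 to 6.21 with cord plasma (median 5.96). It ran from 5.94 to 6.45 with young plasma (median 6.09) and from 5.96 to 6.21 with old plasma (median 6.04). The groups overlapped, because PBS held an array at 6.21 and another at 6.09 above a body of low values, and the highest array of all was young plasma replicate 7. Young plasma differed from PBS by 0.16 (SE 0.08), an intensity 11.97% higher with a 95% interval from -0.598% to 26.1% (unadjusted p 0.0619, adjusted p 0.470, limma). Without replicate 7 the difference was 0.10 (SE 0.08). The unadjusted p ran from 0.0178 to 0.197 over the 14 leave-outs and was under 0.05 in 4 of them, without PBS replicates 2 or 5 or young plasma replicates 1 or 2. For old plasma it was under 0.05 in 1, at 0.0296 without PBS replicate 5. Old plasma differed from PBS by 0.14 (SE 0.08, unadjusted p 0.0963, adjusted p 0.572, limma) and cord plasma by 0.02 (SE 0.08). The authors' deposited table gives Hmox1 an unadjusted p of 0.0831 for young and 0.0701 for old plasma against PBS.

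Nqo1, a quinone reductase widely used as a readout of Nrf2, varied between arrays more than between groups. Its SD within a group was 0.14 with PBS, 0.22 with cord, 0.28 with young and 0.23 with old plasma, and its group means lay between 5.81 and 5.88. It ran from 5.60 to 5.97 with PBS (median 5.92), from 5.50 to 6.06 with cord (median 5.84), from 5.46 to 6.36 with young (median 5.82) and from 5.61 to 6.13 with old plasma (median 5.95). All groups overlapped. The differences from PBS were -0.05 (SE 0.11) with cord, -0.04 (SE 0.11) with young and 0.02 (SE 0.11) with old plasma. Without young plasma replicate 7, the array at 6.36, the young plasma difference was -0.13 (SE 0.10).

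Of 19 further genes of quinone, heme and iron handling 17 were kept, and none passed an adjusted p of 0.05. Unadjusted, 1 was higher and 1 lower with cord plasma, 1 higher with young, and 1 higher and 1 lower with old plasma. Blvrb, which encodes biliverdin reductase B, was at 0.14 (SE 0.06) with cord, 0.17 (SE 0.06) with young and 0.15 (SE 0.06) with old plasma. It ran from 5.30 to 5.77 with PBS and from 5.67 to 5.80 with cord plasma, so the groups overlapped. Osgin1, an oxidative stress-induced growth inhibitor gene, was at -0.13 (SE 0.05) with cord, -0.12 (SE 0.05) with old and 0.04 (SE 0.05) with young plasma.

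Txnip, the thioredoxin-interacting protein gene, showed the widest spread of the 10 within the young plasma group (SD 0.61), which was 0.19 without replicate 7. It ran from 7.61 to 8.15 with PBS (median 7.81) and from 7.62 to 8.10 with cord plasma (median 7.81). It ran from 7.64 to 9.47 with young plasma (median 7.95) and from 7.48 to 7.90 with old plasma (median 7.80). Beside replicate 7, the young plasma array with the highest value was at 8.20, close to the highest PBS array. Young plasma differed from PBS by 0.29 (SE 0.17, unadjusted p 0.0957, limma) and by 0.07 (SE 0.10) without replicate 7. Without young plasma replicate 2 that unadjusted p was 0.0362, and exact permutation of all 14 arrays gave p 0.256. Young plasma exceeded old plasma by 0.38 (SE 0.17, unadjusted p 0.0341, adjusted p 0.732, limma), or 0.16 (SE 0.10, unadjusted p 0.110) without young plasma replicate 7. It was the 1 member under an unadjusted 0.05 in that comparison, beside 6.53% of all genes (0.00634% after adjustment), and 0 members were without replicate 7, beside 5.7%. Leaving out young plasma replicate 4 or old plasma replicates 2 or 3 also ended this call. The exact two-sided permutation test of the same 14 arrays gave Txnip p 0.0606. With cord plasma the difference from PBS was -0.03 (SE 0.17), and with old plasma -0.09 (SE 0.17), and both SEs were 0.09 without young plasma replicate 7.

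All 7 listed arrestin-fold relatives and glucose-sensing factors of the Txnip group were kept. None passed an adjusted p of 0.05, and 1 was higher and 2 lower with cord plasma at an unadjusted p under 0.05, with 0 under young or old plasma. Mlxip, which encodes MondoA, was at 0.09 (SE 0.04) with cord plasma, while Mlxipl, which encodes ChREBP, was at -0.19 (SE 0.07) and the arrestin-domain gene Arrdc1 at -0.20 (SE 0.07). In the thioredoxin system 18 of 18 genes were kept, with 0 at an unadjusted p under 0.05 for cord plasma, 1 higher and 1 lower for young, and 1 higher for old plasma. Srxn1, the sulfiredoxin that restores overoxidised peroxiredoxins and a Nrf2 target, was at 0.17 with old plasma (SE 0.05, unadjusted p 0.00088, adjusted p 0.201, limma), 0.12 (SE 0.05) with young and 0.03 (SE 0.05) with cord plasma. It ran from 7.73 to 7.86 with PBS and from 7.83 to 8.03 with old plasma, ranges that met at their ends. Txn1, thioredoxin itself, was at -0.13 (SE 0.06) with young plasma.

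The superoxide dismutase genes had the smallest standard errors of the 10 members, 0.04 for Sod1 and 0.03 for Sod2. Sod1, the cytosolic enzyme, had group means between 10.31 and 10.34 and ran from 10.15 to 10.44 over all arrays. Sod2, the mitochondrial enzyme, had means between 10.22 and 10.24 and ran from 10.10 to 10.30. For Sod1 the 95% interval of the difference from PBS was -5.53% to 5.80% with cord, -5.73% to 5.57% with young and -7.49% to 3.60% with old plasma. For Sod2 it was -4.90% to 4.80%, -4.42% to 5.33% and -3.64% to 6.19%. Changes of intensity larger than these bounds lie outside the intervals of these arrays.

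Catalase, the peroxisomal enzyme that breaks down hydrogen peroxide, was 1 of the 2 members with an unadjusted p under 0.05 for cord plasma. Cat ran from 9.96 to 10.41 with PBS (median 10.02) and from 10.08 to 10.40 with cord plasma (median 10.26). It ran from 9.86 to 10.29 with young plasma (median 10.18) and from 10.03 to 10.31 with old plasma (median 10.22). PBS replicate 2 was the highest array of all at 10.41. The groups overlapped without it too, since the next PBS array, at 10.13, lay above the lowest array of each plasma group. Cord plasma differed from PBS by 0.15 (SE 0.07), an intensity 10.7% higher with a 95% interval from 0.507% to 21.9% (unadjusted p 0.0398, adjusted p 0.547, limma). The exact two-sided permutation test gave p 0.0699. Over the 14 leave-outs the limma p ran from 0.0032, without PBS replicate 2, to 0.0977, without cord plasma replicate 4. The call ended in 8 of them, those of PBS replicates 3, 4, 6 and 7 and of cord plasma replicates 1, 2, 4 and 5. Young plasma differed by 0.04 (SE 0.07) and old plasma by 0.10 (SE 0.07). Without PBS replicate 2 these were 0.10 (unadjusted p 0.125) and 0.15 (unadjusted p 0.0210), and the difference with cord plasma was 0.20. Without young plasma replicate 4 the young plasma difference was 0.02. A dimmer row of the array for Cat gave 0.08 (SE 0.09, unadjusted p 0.352, limma) with cord and 0.14 (SE 0.09) with young plasma. With old plasma it gave 0.18 (SE 0.09, unadjusted p 0.0472, adjusted p 0.498, limma). So the order of the groups, and which plasma was under an unadjusted 0.05, depended on the row.

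Prdx6, a peroxiredoxin that reduces phospholipid hydroperoxides, was the other member with an unadjusted p under 0.05 for cord plasma. Its row lay at percentile 49.9 of named rows by mean, beside 51.3 for Nqo1, 54.0 for Hmox1 and 97.9 for Cat. Prdx6 ran from 5.56 to 5.81 with PBS (median 5.72) and from 5.72 to 5.89 with cord plasma (median 5.81). It ran from 5.60 to 5.86 with young plasma (median 5.79) and from 5.74 to 5.80 with old plasma (median 5.77). The old plasma arrays were close together (SD 0.02) inside the upper part of the PBS range (SD 0.09). Cord plasma differed from PBS by 0.10 (SE 0.04), 6.94% higher in intensity with a 95% interval from 0.665% to 13.6% (unadjusted p 0.0309, adjusted p 0.528, limma). The call ended in 5 of the 14 leave-outs, those of PBS replicates 4 and 6 and of cord plasma replicates 1, 5 and 6. The largest unadjusted p, 0.0914, came without PBS replicate 6, the array with high thalamus markers, where the difference was 0.07 with cord and 0.03 with young plasma. The difference was 0.07 (SE 0.04) with old plasma, with an exact two-sided permutation p of 0.0414 and an unadjusted p of 0.115 in limma, and 0.05 (SE 0.04) with young plasma. Over the 3 plasma groups together Prdx6 was 0.07 (SE 0.03) above PBS, the 1 member with an unadjusted p under 0.05 (p 0.0453, adjusted p 0.395, limma) where 12.4% of all genes had one and 0.019% passed the adjusted threshold. The call ended in 17 of the 28 leave-outs, in which its unadjusted p reached 0.166, without PBS replicate 6. Cat had an unadjusted p of 0.0071 there without PBS replicate 2.

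Gpx1, the cytosolic glutathione peroxidase, and Gpx4, the selenoenzyme that reduces lipid hydroperoxides and guards cells from ferroptosis, had no difference at an unadjusted p under 0.05 in any comparison. Gpx1 group means lay between 8.34 with old plasma and 8.40 with PBS, and its values ran from 8.20 to 8.53. The Gpx1 difference from PBS was -0.0084 (SE 0.05) with cord, -0.02 (SE 0.05) with young, or -0.05 without replicate 7, and -0.06 (SE 0.05) with old plasma. Gpx4 means lay between 7.91 and 7.96 and its values ran from 7.77 to 8.13. The Gpx4 difference was 0.02 (SE 0.05) with cord, 0.04 (SE 0.05) with young, or 0.02 without replicate 7, and 0.05 (SE 0.05) with old plasma.

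**Figure D2:**
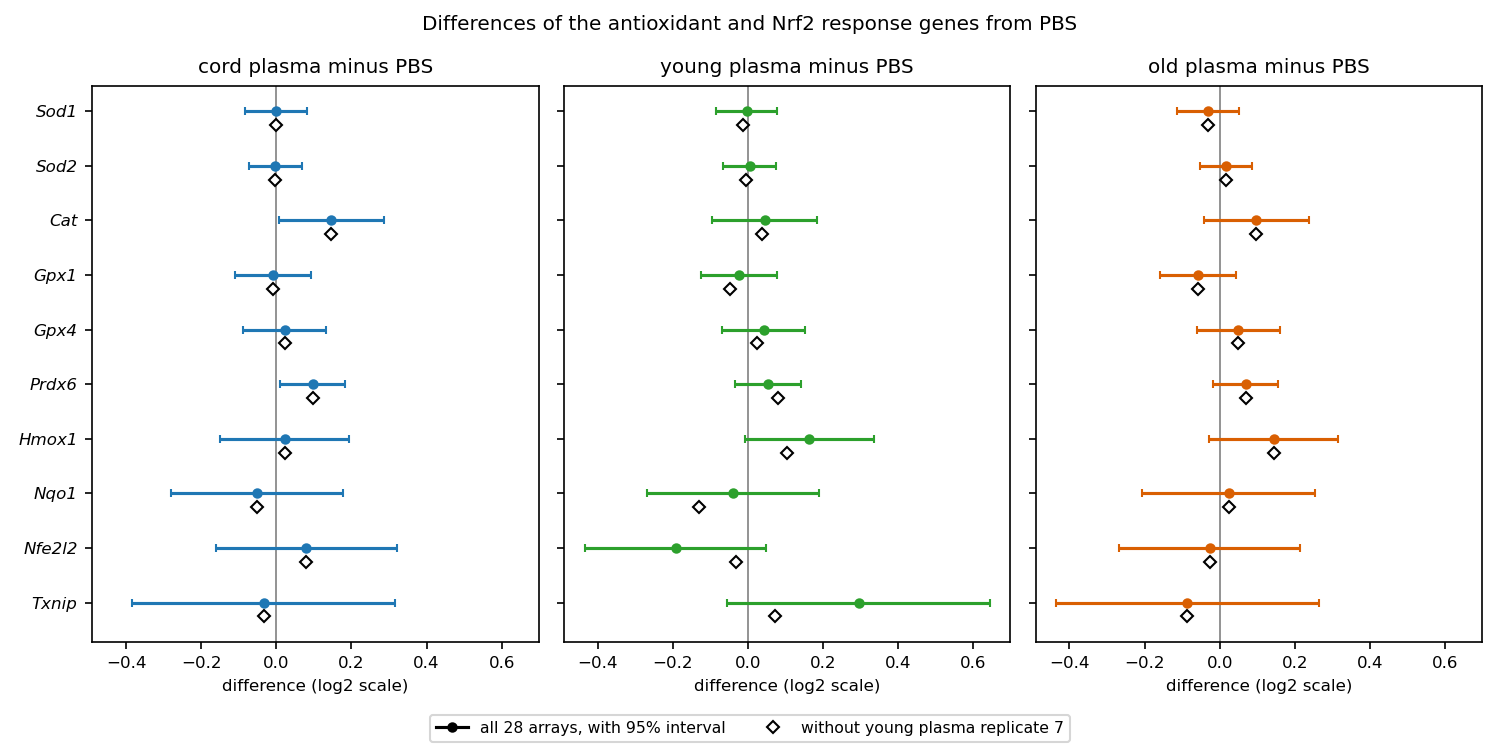
Difference of each member from PBS (x axis, log2 scale) for each plasma, with circles and 95% intervals over all 28 arrays and open diamonds without young plasma replicate 7. The intervals of Cat and Prdx6 with cord plasma lie above 0, and leaving out that array brings Nfe2l2 from -0.19 to -0.03 and Txnip from 0.29 to 0.07 with young plasma.

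Of the other peroxidases, superoxide dismutase Sod3 and the copper chaperone Ccs, 10 of 11 genes were kept. The peroxiredoxin genes Prdx1 and Prdx2 had values below 0, while 6 of the 10 genes lay above 0 with cord, 3 with young and 5 with old plasma. The list median was 0.0050 with cord, -0.034 with young and 0.0047 with old plasma, beside 0.0061, -0.0018 and 0.0050 over all genes. At an unadjusted p under 0.05, 1 was higher and 2 lower with cord plasma, and 2 were lower with young and with old plasma, none at an adjusted p of 0.05. Prdx2, an abundant peroxiredoxin of neurons, ran from 7.69 to 7.86 with PBS, from 7.59 to 7.72 with cord, from 7.62 to 7.76 with young and from 7.55 to 7.77 with old plasma. Its difference from PBS was -0.12 with cord (SE 0.04, unadjusted p 0.00356, adjusted p 0.347, limma), -0.10 (SE 0.04) with young and -0.09 (SE 0.04) with old plasma. Prdx1, a cytosolic peroxiredoxin and Nrf2 target, was at -0.14 (SE 0.06) with cord, -0.16 (SE 0.06) with young and -0.15 (SE 0.06) with old plasma, and overlapped PBS in each group.

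Of the glutathione genes, 10 of 10 for synthesis, recycling and cystine import were kept, with 1 at an unadjusted p under 0.05, lower with young plasma, and none adjusted. Without young plasma replicate 7 Ggt7 was under 0.05 in other comparisons, at 0.10 with cord (unadjusted p 0.0199) and 0.08 with old plasma (unadjusted p 0.0402). The 1 gene was Gsr, which restores reduced glutathione, at -0.16 (SE 0.05, unadjusted p 0.0011, adjusted p 0.214, limma). Gsr was at -0.09 (SE 0.05) with cord and -0.09 (SE 0.05) with old plasma, and ran from 8.82 to 9.02 with PBS and from 8.64 to 8.89 with young plasma. Of 17 glutathione S-transferases 14 were kept. Unadjusted, 1 was higher with cord, 2 higher and 1 lower with young, and 2 higher with old plasma. Gstp1, the pi-class transferase, was at 0.13 (SE 0.05) with cord, 0.13 (SE 0.05) with young and 0.11 (SE 0.05) with old plasma, while the microsomal Mgst1 was at -0.22 (SE 0.07) with young plasma. Without replicate 7 Gstt1 was higher too with young plasma, at 0.14 (unadjusted p 0.0447, limma).

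The remaining lists held few such genes, again none at an adjusted p of 0.05. Metallothioneins and their regulator, 4 of 4 kept, had 1 higher in each plasma comparison, namely Mtf1, the zinc-sensing factor, at 0.08 (SE 0.04) with cord, 0.08 (SE 0.04) with young and 0.11 (SE 0.04) with old plasma. Without young plasma replicate 7 the young plasma count became 0 higher and 1 lower, with Mtf1 at an unadjusted p of 0.0609 and Mt2 at -0.15 (SE 0.07, unadjusted p 0.0351, limma) in place of -0.03. Of the genes that supply NADPH, 9 of 10 were kept and 1 was lower with young plasma, Me1, the malic enzyme, at -0.21 (SE 0.06). Of the oxidant producers 11 of 14 were kept, and Duox1, a hydrogen peroxide-forming oxidase gene, was at -0.31 with cord plasma (SE 0.07, unadjusted p 0.000205, adjusted p 0.224, limma) and -0.17 (SE 0.07) with old plasma. Each was the 1 gene of that list with an unadjusted p under 0.05, and with young plasma it was Xdh, at -0.23 (SE 0.10). Duox1 ran from 5.17 to 5.49 with PBS and from 4.88 to 5.29 with cord plasma. Ferroptosis genes (9 of 9 kept) had Aifm2, a coenzyme Q reductase gene, at 0.19 (SE 0.07) with old plasma and the lipoxygenase gene Alox12 at -0.16 (SE 0.07) with young plasma. Without young plasma replicate 7 the unadjusted p (limma) was 0.104 for Xdh and 0.0548 for Alox12, so neither kept its place under 0.05, while Xdh with cord plasma, at -0.20, had 0.0419 in place of 0.0628. The selenoprotein synthesis list (10 of 10 kept) also holds genes of selenoproteins themselves, such as Sepw1. It had Pstk, a kinase of the selenocysteine tRNA, at 0.21 (SE 0.07) with young and 0.14 (SE 0.07) with old plasma. With cord plasma 2 of its genes were higher, Eefsec at 0.11 (SE 0.05) and Sepw1 at 0.12 (SE 0.05).

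Over the 12 pathway lists 130 different genes were tested. At an unadjusted p under 0.05, 7 were higher and 7 lower with cord plasma, 8 and 8 with young, and 8 and 4 with old plasma. These are 10.8%, 12.3% and 9.23% of the list genes, close to the 8.74%, 11.2% and 10.8% of all genes. The limma fit gave no pathway gene an adjusted p under 0.05 in any of the 7 comparisons. Cortex and striatum markers lay higher with plasma beside these values, with 1, 4 and 3 of 8 higher at an unadjusted p under 0.05 for cord, young and old plasma, and 0 lower. Their part in the values was not tested.

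**Figure D3:**
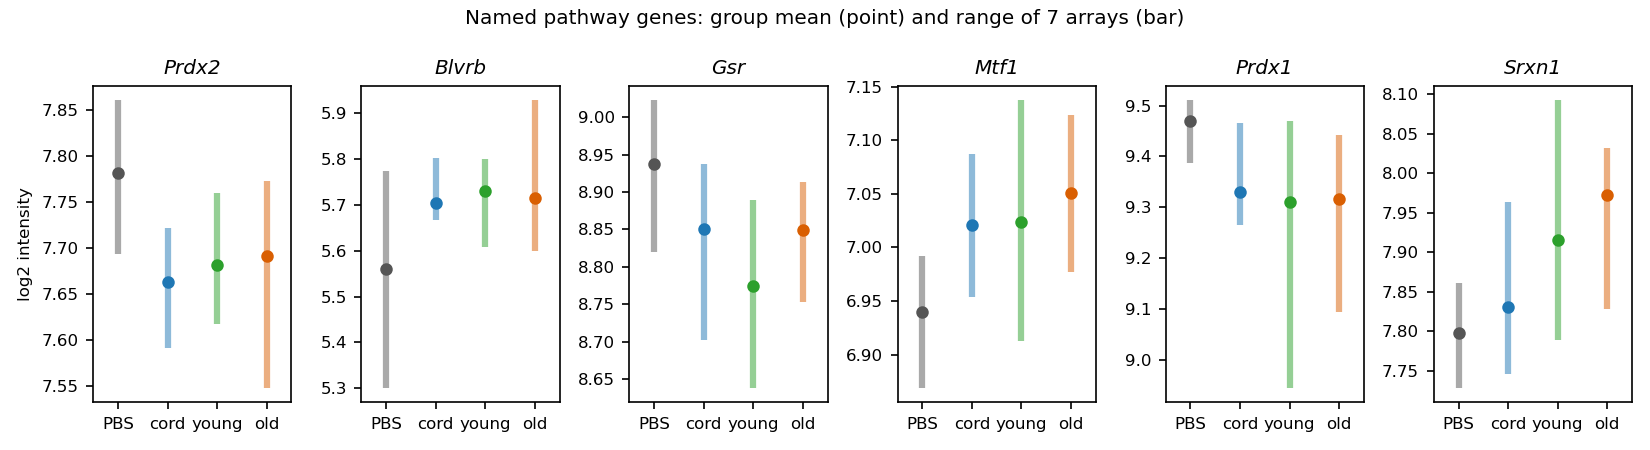
Log2 intensity of the 6 named pathway genes with the smallest unadjusted p in the comparison of all plasma with PBS, with group means as points and the range of 7 arrays as bars. Prdx2, Gsr and Prdx1 have lower and Blvrb, Mtf1 and Srxn1 higher means in each plasma group than in PBS, and the bars of PBS overlap those of the plasma groups; the genes were chosen for this difference.

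On young plasma replicate 7 Nfe2l2 lay below the other arrays, while Txnip, Nqo1, Hmox1, Gpx1 and Sod2 lay above them, on an array where 27.7% of all genes were outside. Of the 10 members 5 lay above and 1 below the range of the other 27 arrays, against 0 to 3 members outside on any other array. Nfe2l2 was at 6.24, or -1.16 from the mean of the other arrays, whose values ran from 7.16 to 7.67. Txnip was at 9.47, or 1.64 above that mean and 3.12-fold, with other values from 7.48 to 8.20. Nqo1 was at 6.36 (others 5.46 to 6.13), Hmox1 at 6.45 (others 5.72 to 6.21), Gpx1 at 8.53 (others 8.20 to 8.51) and Sod2 at 10.30 (others 10.10 to 10.29). Sod1, Cat, Gpx4 and Prdx6 were within the range.

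Pathway genes lay apart on that array about as often as all genes did, 37 of 130 or 28.5%, of which 24 were above and 13 below. Above the range were the small Maf gene Mafk at 7.43 (others 6.32 to 6.64), the metallothioneins Mt1 at 10.71 (others 9.88 to 10.34) and Mt2 at 10.66 (others 9.50 to 10.15), Arrdc2, an arrestin-domain relative of Txnip, at 7.62 (others 6.55 to 7.25), and Sesn2, a stress-responsive sestrin, at 7.02 (others 6.22 to 6.83). Below it were Slc7a11, the cystine importer that Nrf2 activates, at 6.97 (others 7.97 to 8.85), Slc40a1, the iron exporter ferroportin, at 5.33 (others 5.87 to 6.43), and Xdh, which encodes xanthine dehydrogenase, at 4.95 (others 5.15 to 6.00). Microglia markers (8 of 8 measured) averaged 7.20 on this array and 7.59 to 7.88 on the others, and endothelial and pericyte markers (8 of 8) 7.16 and 7.32 to 7.85. Neuron, astrocyte, oligodendrocyte and choroid plexus markers were within the range of the others. The part of these markers in the values of this array was not tested.

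**Figure D4:**
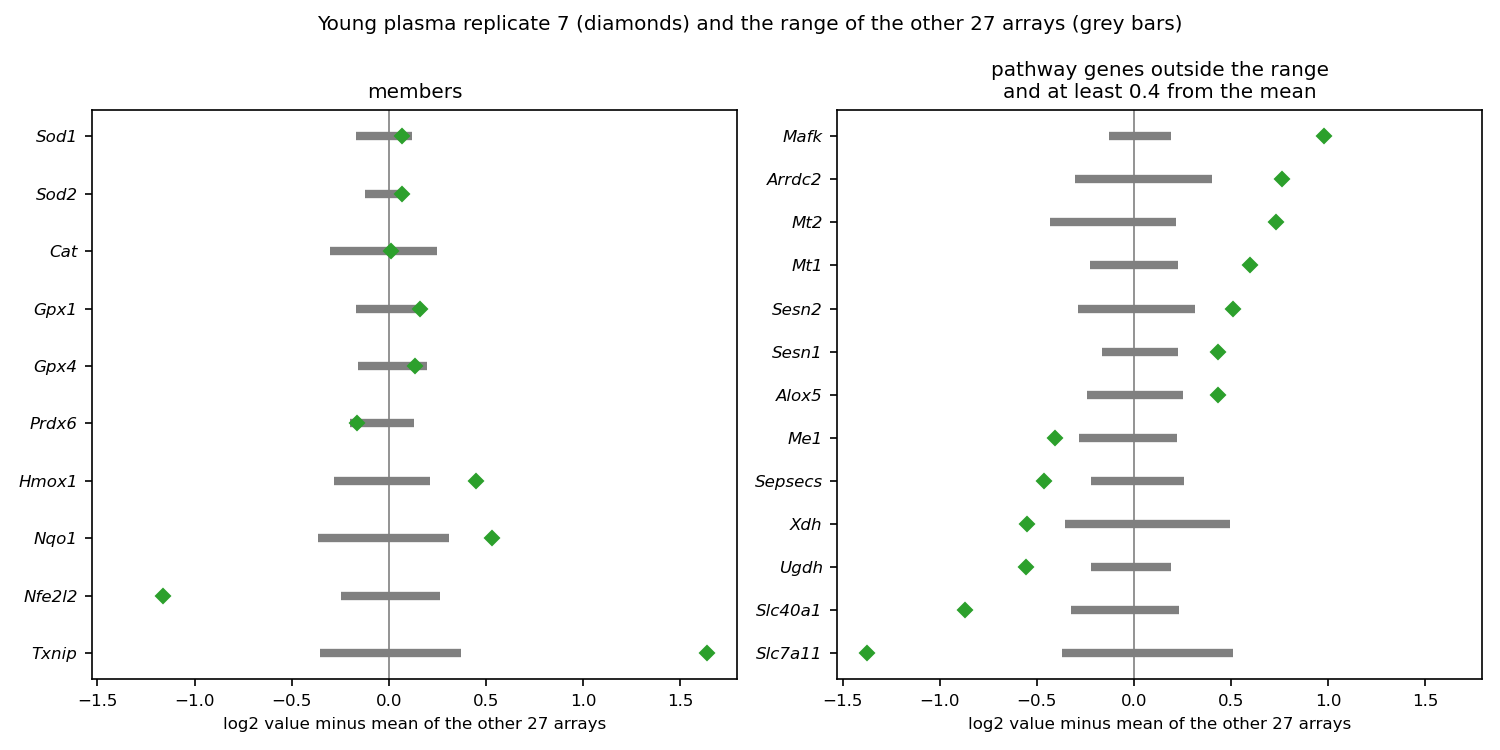
Log2 value on young plasma replicate 7 minus the mean of the other 27 arrays (diamonds), with the range of the other arrays as grey bars, for the members (left) and for the pathway genes that lie outside that range and at least 0.4 from the mean (right). Txnip lies 1.64 above and Nfe2l2 -1.16 from the mean of the others, and Slc7a11 lies furthest below among the pathway genes.

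How the members varied together was described by the correlation of deviations from group means, over the 45 pairs. The values share arrays and normalization, and the arrays are few. Nfe2l2 and Txnip had r -0.65 (rho 0.10) over 28 arrays and r 0.61 (rho 0.65) over the 27 arrays without young plasma replicate 7, so the sign of r rested on that array. Nfe2l2 and Nqo1 had r -0.27 (rho 0.19) and 0.62 (rho 0.59), and Nfe2l2 and Cat 0.24 (rho 0.50) and 0.73 (rho 0.66). In 13 of the 45 pairs the sign of r differed between the 28 and the 27 arrays.

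**Figure D5:**
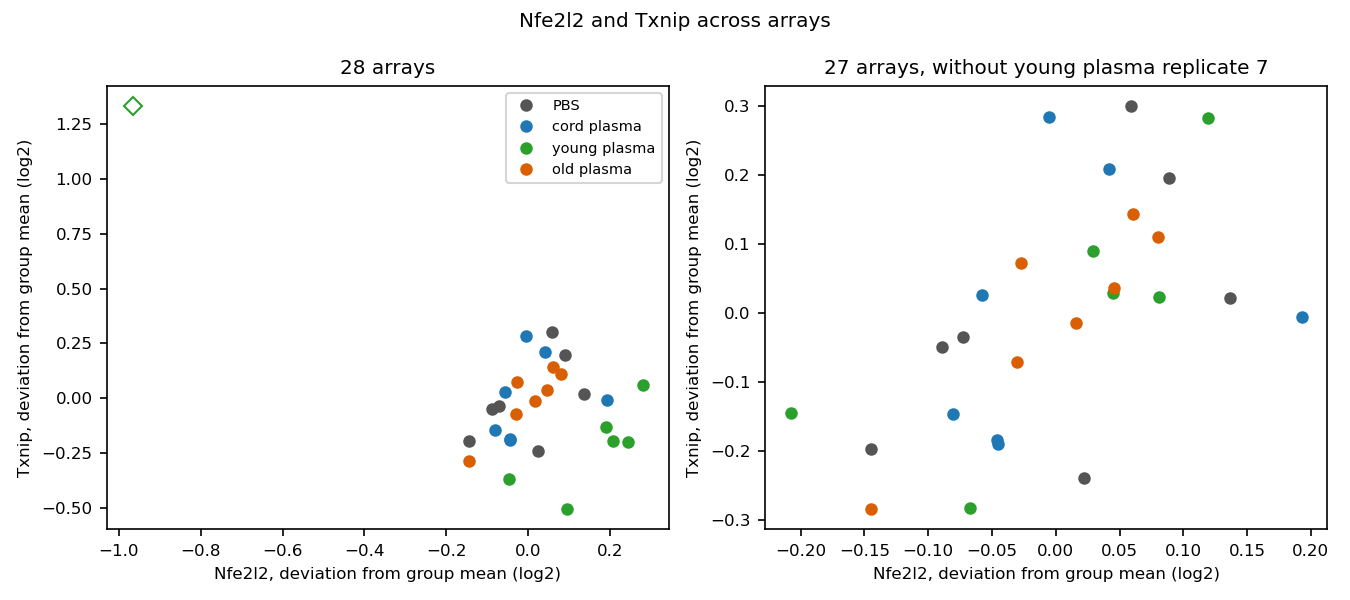
Deviation from the group mean (log2) of Nfe2l2 (x axis) and Txnip (y axis), coloured by group, over 28 arrays (left) and over 27 arrays with group means taken anew (right). The open diamond at the upper left is young plasma replicate 7, and r is -0.65 on the left and 0.61 on the right.

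Pairs that depended less on that array included Gpx1 and Gpx4 with r 0.63 and 0.59, Nqo1 and Txnip with 0.71 and 0.57, and Cat and Nqo1 with 0.55 and 0.61 over 28 and 27 arrays. Cell markers varied along with some members over the 27 arrays. The mean of the astrocyte markers had r 0.60 with Nfe2l2 and 0.61 with Txnip, and that of the oligodendrocyte markers 0.62 with Nfe2l2. That of the cortex and striatum markers had -0.62 with Nqo1 and -0.57 with Cat. Over all 28 arrays these were, in the same order, 0.32, 0.25, 0.42, -0.66 and -0.56. The microglia markers had r 0.84 with Nfe2l2 and -0.60 with Txnip over 28 arrays, but 0.39 and 0.34 over 27. The choroid plexus markers formed separate clusters of arrays, so an r with them may rest on the clusters. Over the 27 arrays it was 0.61 with Sod1, 0.59 with Nqo1, 0.58 with Nfe2l2, 0.54 with Txnip and 0.50 with Cat. With the other members it ran from -0.09 for Prdx6 to 0.27 for Gpx4. Over 28 arrays it was 0.62 with Sod1, 0.58 with Nqo1, 0.08 with Nfe2l2, 0.42 with Txnip and 0.50 with Cat. The part of these markers in the correlations was not tested.

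The genes whose deviations were most like a member's were found among all 15781 genes. For Cat they were Wdr46 with r 0.87, Capns1 with 0.84 and Man1a with 0.82 over 28 arrays, and 0.89, 0.84 and 0.82 over 27. For Nqo1 they were Fuca1 with 0.86, Ercc3 with 0.81 and Trp53inp1 with 0.81, and 0.80, 0.74 and 0.72 over 27. For Txnip they were Ddit4 with 0.91, H3f3b with 0.90 and Htra1 with 0.89, which were 0.63, 0.63 and 0.61 without young plasma replicate 7. For Nfe2l2 they were Iws1 with 0.93, Zcchc11 with 0.92 and Galnt7 with 0.91, which were 0.56, 0.44 and 0.30 without it, so that array carried much of the likeness of these genes to Txnip and Nfe2l2. The closest gene to the other members was Hat1 for Sod1 (0.76), Ciz1 for Sod2 (0.80), Mvb12a for Gpx1 (0.72), Efhc2 for Gpx4 (0.70), Setd1b for Prdx6 (0.73) and Zfp212 for Hmox1 (0.71). Each is the highest of many correlations, which lifts its value.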

How the data were processed

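RNA of 28 hippocampal samples was hybridised to Affymetrix whole-transcript arrays, per the labels' protocols. The deposited value table holds log2 intensities of 41345 rows. The authors' processing used RMA, which the submitters' processing notes name with no version or options. RMA makes array distributions alike, which can take away a difference common to most genes. A table by the authors holds group means and unadjusted p-values of 23410 rows with a symbol, per the file headers; its means equalled those of the value table within 8.57e-09. Array depth is signal over background, which is not stated, and 7 arrays per group limit the precision.

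Rows under the 30th percentile of named rows (4.68) were left out, and the row with the highest mean represented a gene. Cat has 2 rows. Groups were taken from titles. Group means were fitted over all 28 arrays with limma 3.58.1 in R 4.3.3 (lmFit and eBayes), with Benjamini-Hochberg adjustment over 15781 genes and a threshold of 0.05, for 7 comparisons and an F-test. SE is the moderated standard error. Exact permutation enumerated 3432 splits of 14 arrays and can go no lower than p 0.000583. The fit was tested on simulated data. Alternatives were other filters, scalings, row rules, variance models, array weights, the compared arrays alone, a replicate block and leaving out each array.

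The members and the gene lists were chosen with earlier results of these data known. Named pathway genes are the 2 with the smallest unadjusted p per list and plasma comparison, of which the text gives a part chosen after their values had been seen. Promoters are RefSeq's for GRCm38.p6; the files name no build, so no position of an array row is given.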

Additional observations from a re-analysis of the deposited data

Results flagged for a closer look

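In 7 of 40 sets of 7 arrays, 10 members in 4 groups, the highest or lowest array lay far from the others by Dixon's criterion. Chance alone marks about 1 in 20 such sets, and over all genes 6.35% of sets were marked with PBS, 6.40% with cord, 12.1% with young and 7.12% with old plasma. With young plasma 3 members were marked on replicate 7: Txnip at 9.47 (other young plasma arrays 7.64 to 8.20), Nfe2l2 at 6.24 (others 7.16 to 7.49) and Hmox1 at 6.45 (others 5.94 to 6.10). Sod1 on old plasma replicate 2 was at 10.15, with the others from 10.31 to 10.37. Sod2 was at 10.10 on PBS replicate 1 (others 10.22 to 10.26) and at 10.10 on cord plasma replicate 3 (others 10.21 to 10.28). Cat on PBS replicate 2 was at 10.41, with the others from 9.96 to 10.13.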

How the results depend on the processing

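No member passed an adjusted p of 0.05 in limma under any setting tried; the smallest was 0.223. The counts of members with an unadjusted p under 0.05 were small and moved with the settings, and no share of all genes is given beside them here. Among the members, the mean over a gene's rows changed the intensities of Cat alone, which has 2 rows. Beyond this and the row that a filter removed, the cause was not tested. A filter at the 50th percentile left out Prdx6, whose row lay at percentile 49.9 of named rows, so Prdx6 was not tested there. For cord plasma against PBS the count of 2 was 1 among the members still tested under that filter. The count was also 1 with the mean over a gene's rows, with a trended and robust fit and by exact permutation. For young plasma against PBS the count of 0 was 1 with renewed quantile normalization, and for old plasma 1 with the mean over a gene's rows and by exact permutation. For the mean of the plasma groups the count of 1 was 0 with no filter and with a trended and robust fit, and 2 with the mean over rows. It was 0 too under the filter at the 50th percentile, where Prdx6, the 1 member called, was not tested. For cord against old plasma the count of 0 was 1 with array weights, with the compared arrays alone and by exact permutation. For young against old plasma the count of 1 was 0 under the same 3 settings. For cord against young plasma the count of 1 was 2 with renewed quantiles and 0 with array weights and with the compared arrays alone. The compared arrays alone are no alternative for the mean of the plasma groups.

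Leaving out each array in turn gave 0 to 2 members for cord plasma, 0 to 2 for young, 0 to 1 for old plasma and 0 to 2 for the mean of the plasma groups, each against PBS. It gave 0 to 1 for young against old plasma, 0 to 3 for cord against young plasma and 0 to 1 in the F-test. No share of all genes is given beside these counts. Replicate numbers are shared between groups and were not taken to pair the arrays, since not every pair varied together: same-numbered arrays had correlations of deviations from -0.19 to 0.41 (median 0.02), with 12 of 42 pairs over 0.1. The 6 pairs of replicate 4 were all over 0.1, from 0.12 to 0.41. With the replicate block 0 members had an unadjusted p under 0.05 for the mean of the plasma groups (Prdx6 0.0617 in place of 0.0453), and the count of pathway genes for cord plasma was 9 in place of 14.

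Signs near 0 were not fixed, and none of these values passed a threshold. For cord plasma against PBS, renewed quantiles gave Sod1 0.0058 and Sod2 0.0022, centring on the array median Sod1 0.0098, Sod2 0.0078 and Gpx1 0.0018, and array weights Sod2 0.0038. For young plasma against PBS centring gave Sod1 0.0020. Array weights gave Txnip -0.0055 for the mean of the plasma groups, Prdx6 0.0063 and Hmox1 -0.040 for young against old plasma, and Sod2 0.0038, Gpx4 0.0067 and Nqo1 0.0031 for cord against young plasma. Renewed quantiles gave Sod2 0.00062 and Gpx4 0.012 for young against old plasma, and the mean over rows Cat -0.025 for cord against old plasma.

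Leave-outs turned the sign of 26 of 70 single-member differences. For cord plasma against PBS the ranges were Sod1 -0.014 to 0.016, Sod2 -0.023 to 0.017, Gpx1 -0.039 to 0.023, Gpx4 -0.0021 to 0.044, Hmox1 -0.020 to 0.069, Nqo1 -0.095 to 0.00039 and Txnip -0.081 to 0.016. For young plasma they were Sod1 -0.022 to 0.013, Sod2 -0.015 to 0.020 and Nqo1 -0.13 to 0.020, and for old plasma Sod2 -0.0036 to 0.025 and Nqo1 -0.020 to 0.069. For the mean of the plasma groups they were Sod1 -0.024 to 0.0053, Sod2 -0.014 to 0.013, Nfe2l2 -0.070 to 0.0074 and Txnip -0.016 to 0.11. For cord against old plasma Sod2 was -0.029 to 0.00038. For young against old plasma they were Sod2 -0.023 to 0.0032, Gpx4 -0.037 to 0.014, Prdx6 -0.035 to 0.0096 and Hmox1 -0.040 to 0.045. For cord against young plasma they were Sod1 -0.010 to 0.022, Sod2 -0.022 to 0.012, Gpx1 -0.0045 to 0.046, Gpx4 -0.044 to 0.0096 and Nqo1 -0.071 to 0.078.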
